A study of Drosophila melanogaster with 2 samples.

Results

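The members were the microRNA genes of Drosophila melanogaster, chosen by their annotation alone as every gene of Ensembl release 115 (BDGP6) whose symbol starts with mir- or whose biotype is pre_miRNA, the let-7 gene included under its symbol mir-let7. There were 262 such hairpins among 17873 genes, and 260 of them lay on the 6 chromosome arms that hold peaks. The other 2, mir-10404-1 and mir-10404-2, lie on a ribosomal DNA sequence and were not assessed. Binding was read from ChIP-seq peaks (sequencing of DNA recovered by chromatin immunoprecipitation) of whole pupae aged 24 hours, from a transgenic line that stably expresses CG17806 with green fluorescent protein (GFP) at its C-terminal end. Sonicated chromatin was pulled down through the GFP tag, and the labels name no untagged group. The labels give 1 group with 2 biological replicates and state that sex was not collected, so binding could be compared between replicates and between kinds of gene, but not between conditions. Because whole animals were used, binding in a few cells and weak binding in many cells cannot be told apart.

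MicroRNAs are cut from hairpins in longer transcripts. Drosha with its partner Pasha releases the hairpin in the nucleus, Dcr-1 trims it to a duplex in the cytoplasm, and 1 strand is loaded into AGO1, where bases 2 to 8, the seed, pair with target messenger RNAs. A hairpin's own 5′ end is therefore not a transcription start. The promoter of an intergenic or exonic microRNA can lie some way upstream, and an intronic microRNA usually shares the promoter of the gene that holds it, its host. Many microRNAs of flies lie in clusters that are transcribed together. At metamorphosis the best known of these is the let-7 complex, whose transcript holds mir-100, mir-let7 and mir-125 and appears in response to the steroid hormone ecdysone. CG17806, the tagged protein, belongs to the zinc-finger genes with a ZAD domain.

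Peaks came as 4 deposited lists on dm6. The list of each replicate and the list called on both replicates together held 30000 peaks each, and the list of peaks that passed an irreproducible discovery rate (IDR) threshold held 7645. The position of a peak was its summit, and a rank is the place of its deposited signal within its own list, with 1 the strongest. The lists hold no read counts, so the depth is unknown. Hairpins on the same strand within 10000 bp of the next were counted as 1 unit, which gave 203 units, of which 181 were lone hairpins and 22 were clusters. All 260 hairpins had the same coordinates in the RefSeq annotation of Release 6.

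The mature microRNAs at the loci that the results turn on are shown first, with the seed in capitals, 5′ to 3′, from the RefSeq Release 6 genome and annotation. The arm shown is named as 5p or 3p, with no statement of which arm is the more abundant here. The sequences group the loci by seed: mir-279 and mir-996 share one seed, and mir-2c, mir-13a and mir-13b-1 share another.
mir-279 3p: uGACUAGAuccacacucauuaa
mir-996 3p: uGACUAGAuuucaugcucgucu
mir-ban 3p: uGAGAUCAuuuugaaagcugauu
mir-276a 3p: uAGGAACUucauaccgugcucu
mir-282 5p: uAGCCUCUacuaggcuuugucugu
mir-275 3p: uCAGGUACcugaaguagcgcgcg
mir-305 5p: aUUGUACUucaucaggugcucug
mir-274 5p: uUUGUGACcgacacuaacgggua
mir-2c 3p: uAUCACAGccagcuuugaugggc
mir-13a 3p: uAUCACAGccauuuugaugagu
mir-13b-1 3p: uAUCACAGccauuuugacgagu

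The genomic sequence under 6 IDR summits upstream of these hairpins is shown next, because these are the summits at the named loci that are discussed most below. Each window holds 101 bases centred on the summit, which is the 51st base, and is read on the strand of the hairpin from RefSeq Release 6 (dm6). Capitals mark runs of 6 or more bases made of A and T alone.
mir-279, IDR rank 26, chr3R:29214397-29214497, plus strand: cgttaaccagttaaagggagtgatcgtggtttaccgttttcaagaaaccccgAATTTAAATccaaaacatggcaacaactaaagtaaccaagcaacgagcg
mir-ban, IDR rank 690, chr3L:640715-640815, plus strand: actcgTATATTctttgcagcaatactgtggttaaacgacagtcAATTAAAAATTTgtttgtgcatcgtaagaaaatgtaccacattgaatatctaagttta
mir-276a, IDR rank 1701, chr3L:10365057-10365157, plus strand: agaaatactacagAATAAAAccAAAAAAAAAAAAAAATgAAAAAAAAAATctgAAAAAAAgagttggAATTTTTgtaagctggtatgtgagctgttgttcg
mir-282, IDR rank 2243, chr3L:3250218-3250318, plus strand: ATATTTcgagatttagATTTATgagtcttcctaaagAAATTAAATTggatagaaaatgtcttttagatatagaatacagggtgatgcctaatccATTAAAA
mir-275, IDR rank 3549, chr2L:7425300-7425400, plus strand: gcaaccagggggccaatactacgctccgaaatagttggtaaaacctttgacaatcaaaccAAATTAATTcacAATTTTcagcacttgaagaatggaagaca
mir-2c, IDR rank 7195, chr3R:15419066-15419166, minus strand: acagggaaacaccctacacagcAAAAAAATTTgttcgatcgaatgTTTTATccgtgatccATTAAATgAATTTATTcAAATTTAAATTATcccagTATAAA
The longest run, of 16 bases, was at mir-276a, where 48 bases lay in such runs. The window at mir-279, the strongest summit, held a single run of 9 bases, and that at mir-ban held a longest run of 12. At mir-2c, 50 of the bases lay in such runs, the last of which ends in TATAAA.

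Few hairpins had binding at their own 5′ end. An IDR summit lay within 500 bp upstream of 6 of 260 hairpins, or 2.31% (Wilson 95% interval 1.06 to 4.94%), against 12.1% of the 17423 other genes on these arms, measured upstream of their 5′ ends. Among those, the share was 13.7% of protein-coding genes, 6.67% of other non-coding RNA genes, 5.17% of tRNA genes and 2.6% of snoRNA genes. The interval of the hairpins thus lay below the share of protein-coding genes and held that of snoRNA genes. It ended just below the share of tRNA genes, with all 260 hairpins counted as independent. Counted by unit, 6 of 203 units were bound, and no interval was computed for units. Within 2000 bp, and in the list called on both replicates, snoRNA genes stood well above the hairpins, as given below. The Wilson intervals cover counting error only, and neighbouring hairpins share windows.

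Within 2000 bp the hairpins came closer to the other genes. An IDR summit lay that close upstream of 33 hairpins, or 12.7% (9.18 to 17.3%), against 19.5% of other genes. The shares were 20.5% for protein-coding genes, 15.8% for other non-coding RNA genes, 16.2% for tRNA genes and 28.3% for snoRNA genes. The 33 hairpins belonged to 28 units, and 33 distinct summits lay in their windows. In the list called on both replicates, 33 hairpins (12.7%) had a summit within 500 bp, against 29.3% of other genes, and 83 (31.9%) had one within 2000 bp, against 44% of other genes. In that list the other kinds stood at 31.7%, 19.6%, 33.8% and 23% within 500 bp and at 45.3%, 38.1%, 57.6% and 65.4% within 2000 bp, for protein-coding, other non-coding RNA, tRNA and snoRNA genes in that order.

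**Figure D1:**
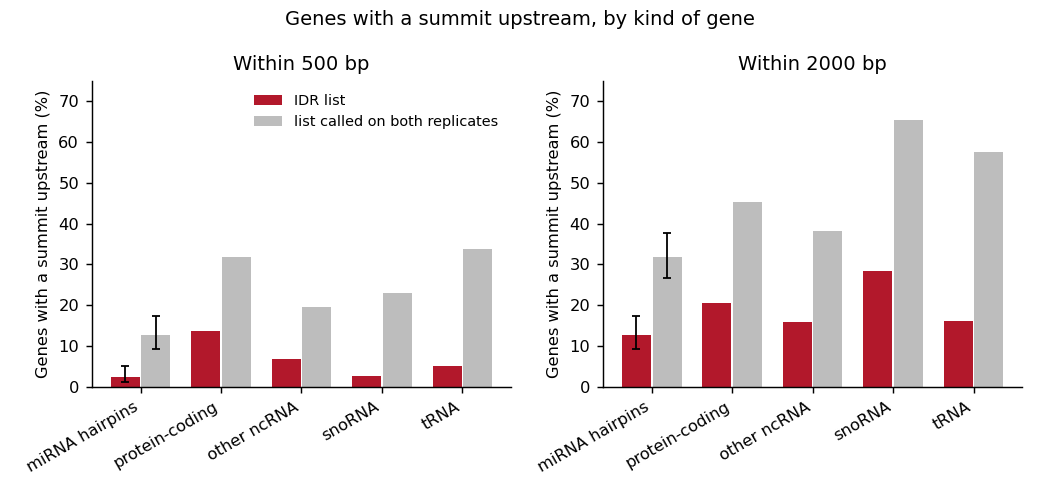
Share of genes (%) with a summit within 500 bp (left) and 2000 bp (right) upstream of the 5′ end, for microRNA hairpins and 4 other kinds of gene, in the IDR list (red) and the list called on both replicates (grey); error bars on the hairpins are Wilson 95% intervals. Hairpins stand at 2.31% within 500 bp and 12.7% within 2000 bp in the IDR list, below protein-coding genes at 13.7% and 20.5%.

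The replicates gave similar counts. Replicate 1 had a summit within 500 bp upstream of 34 hairpins, against 29.7% of other genes, and replicate 2 of 27 hairpins, against 27.1% of other genes. Of these, 13 hairpins were bound in both lists, which is 38.2% of those of replicate 1 and 48.1% of those of replicate 2. Over the other genes, the shared ones were 62.2% of those of replicate 1 and 68.1% of those of replicate 2. Within 2000 bp the counts were 84 hairpins in replicate 1 and 90 in replicate 2, against 44.9% and 46.2% of other genes, and 59 were shared, which is 70.2% of those of replicate 1 and 65.6% of those of replicate 2. The shares over the other genes were 73.8% and 71.7%. Among the 7645 strongest peaks of each replicate, 6 hairpins were bound within 500 bp in each, and 28 in replicate 1 and 31 in replicate 2 within 2000 bp. No summit of either replicate lay within 2000 bp upstream of 145 hairpins (55.8%), against 42.0% of the other genes.

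Summits of the IDR list were denser upstream of hairpins than downstream of them, but the shares of bound hairpins were not clearly apart. The IDR list held 33 summits in the 2000 bp upstream of hairpins, or 75.4 per Mb. It held 21 in the 2000 bp downstream, or 48.2 per Mb, against 57.1 per Mb over the 6 arms. Counted by hairpin, 33 had a summit within 2000 bp upstream, or 12.7% (9.18 to 17.3%). Downstream 23 had one, or 8.85% (5.97 to 12.9%), and these Wilson intervals overlap. Close to the hairpins the difference in density was small, with 50.8 per Mb within 500 bp upstream and 42.5 per Mb within 500 bp downstream. These rest on 6 and 5 summits. Around units, 14 summits lay between 500 and 1000 bp upstream of the first hairpin and 6 within 500 bp. The stretch between 1500 and 2000 bp upstream held 3, and the next stretches out to 5000 bp held 10 to 16 each. Inside a hairpin itself, the IDR list had a summit in mir-4962 and in mir-4974 and in no other hairpin.

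**Figure D2:**
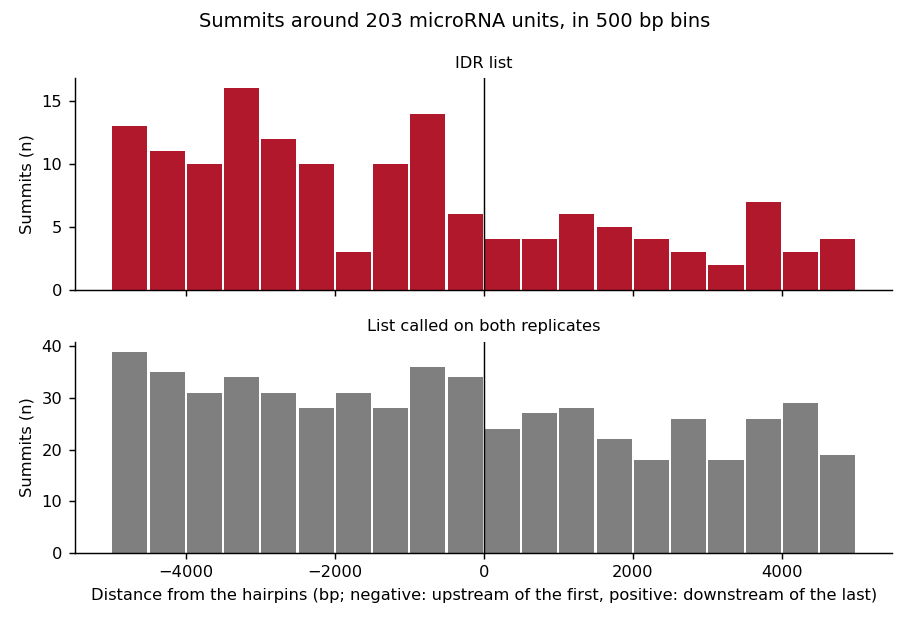
Number of summits per 500 bp bin against distance (bp) from the hairpins of 203 units, upstream of the first hairpin (negative) and downstream of the last (positive), for the IDR list (top, red) and the list called on both replicates (bottom, grey). The IDR list holds 14 summits between 500 and 1000 bp upstream and 6 in the nearest 500 bp, and 2 to 7 in each downstream bin.

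The strongest peak at any hairpin was at the mir-279 cluster on 3R. mir-279 and mir-996 share their seed, and mir-279 is known for repressing nerfin-1 while carbon dioxide-sensing neurons are specified. The hairpins, at 29215585 to 29215684 for mir-279 and 29217184 to 29217280 for mir-996 on the plus strand, lie in exons of the long non-coding RNA lncRNA:CR31044. The summit, at 29214447, had rank 26 of the IDR list, rank 20 in replicate 1 and rank 53 in replicate 2. It lay 1138 bp upstream of mir-279 and 115 bp upstream of the start of lncRNA:CR31044, so it stands at the start of the host and not at the hairpin. A further IDR summit of rank 5994 lay 366 bp upstream of mir-279, inside the host. That one was near the end of the list in replicate 2: its rank was 4025 in replicate 1, but the matching summit of replicate 2 had rank 29809 with a −log10 q of 0.148.

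The bantam locus came next. The bantam microRNA (mir-ban) promotes growth and blocks cell death by repressing the pro-apoptotic gene hid. Its hairpin lies at 642208 to 642288 on 3L in an exon of lncRNA:CR43334. The nearest IDR summit lay 418 bp downstream of the 5′ end of the hairpin. The upstream IDR summit, at 640765, was 1443 bp away with rank 690 and ranked much alike in replicate 1 (rank 710) and replicate 2 (rank 680). The upstream summit lay 1051 bp downstream of the nearest start site of lncRNA:CR43334, inside that gene. None of the 3 start sites of the host had an IDR summit closer than 500 bp. The best summit there in the list called on both replicates had rank 12222.

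The hairpin with the nearest upstream summit was mir-276a, which is known from olfactory memory in the fly brain. It lies at 10365228 to 10365325 on 3L, in an exon of lncRNA:CR46006, and its summit, at 10365107, lay 121 bp upstream. That summit had rank 1701 in the IDR list, 1461 in replicate 1 and 2568 in replicate 2, and it lay 1088 bp downstream of the nearest start site of the host. The start site itself carried a weaker summit, 47 bp upstream of it and 1256 bp from the hairpin, with rank 6073. The matching rank was 5115 in replicate 1 but 17863 in replicate 2, where the −log10 q was 0.605. mir-276b, which has the same seed and lies in lncRNA:CR46004, had no IDR summit within 2000 bp, and its nearest one lay 3727 bp upstream.

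mir-282 and the mir-275 cluster had several summits each. mir-282, which is known to repress the adenylate cyclase gene rutabaga, lies in an exon of lncRNA:CR43626 on 3L. One summit lay 754 bp upstream of the hairpin and 326 bp upstream of a host start site, with rank 2243 in the IDR list, 2512 in replicate 1 and 1903 in replicate 2. A much stronger one, of rank 336, lay 2112 bp upstream, just outside the window, and 430 bp upstream of another start site of the same host. mir-275 and mir-305 are transcribed in the same direction on 2L, and mir-305 is known for controlling intestinal stem cells. Their summits lay 445 bp (rank 3549) and 1375 bp (rank 3111) upstream of mir-275, both inside lncRNA:CR43857. The ranks were 4122 and 3208 in replicate 1, and 2764 and 2915 in replicate 2. The start of that host carried another summit, of rank 2491, at 2365 bp from mir-275.

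mir-8 is known for promoting growth through the fat body, and mir-14 for limiting cell death and fat storage. Both lie on 2R in exons of long non-coding RNAs. The summit at mir-8 had rank 3205, with 2942 in replicate 1 and 3778 in replicate 2. It lay 890 bp upstream of the hairpin and 147 bp upstream of a start of lncRNA:CR43650. The summit at mir-14 had rank 7318, with 5856 in replicate 1 and 11363 in replicate 2, and lay 884 bp upstream of the hairpin and 34 bp downstream of the start of lncRNA:CR43651. At both loci the summit thus stood at the host start, and the one at mir-14 was near the end of the IDR list.

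The members of the mir-2 family share the seed AUCACAG, by which they are known to repress the pro-apoptotic genes reaper, grim and sickle. Of the 14 hairpins with this seed, 4 had an IDR summit within 2000 bp: mir-2c, mir-13a and mir-13b-1, which share 1 summit of rank 7195 on 3R, and mir-308. These 4 rest on 2 summits, and the share over all 260 hairpins was 12.7%, against 19.5% of other genes. The summit of mir-2c, mir-13a and mir-13b-1 lay 1271 bp upstream of mir-2c and 1258 bp downstream of the nearest start of lncRNA:CR45911, with rank 9032 in replicate 1 and 6194 in replicate 2. mir-308 lies in the ribosomal protein gene RpS23, whose start carried the summit, of rank 6566. Of 3 hairpins with the seed GACUAGA, mir-279 and mir-996 were bound and mir-286 was not. mir-996 was bound only through the summit of rank 5994, 1965 bp upstream of it, which it shares with mir-279. The matching summit of replicate 2 had rank 29809. None of the 6 hairpins with the seed AUUGCAC (mir-310, mir-311, mir-312, mir-313, mir-92a and mir-92b) had an IDR summit within 2000 bp upstream. These 6 lie in 2 units, the mir-992 and mir-92a clusters. The nearest IDR summit lay downstream of the 5′ end of each hairpin, from 238 bp at mir-92b to 1650 bp at mir-313. The host of mir-92a and mir-92b, jigr1, had a start with a summit of rank 2342. None of the 3 hairpins with the seed CUUUGGU (mir-9a, mir-9b and mir-9c) had an IDR summit within 2000 bp upstream either, and mir-9b and mir-9c lie in 1 unit. The share of bound units over all 203 was 13.8%, and these families hold too few units to be set apart from it. Further seed families of 3 hairpins, such as AGCACCA, also had no bound hairpin.

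**Figure D3:**
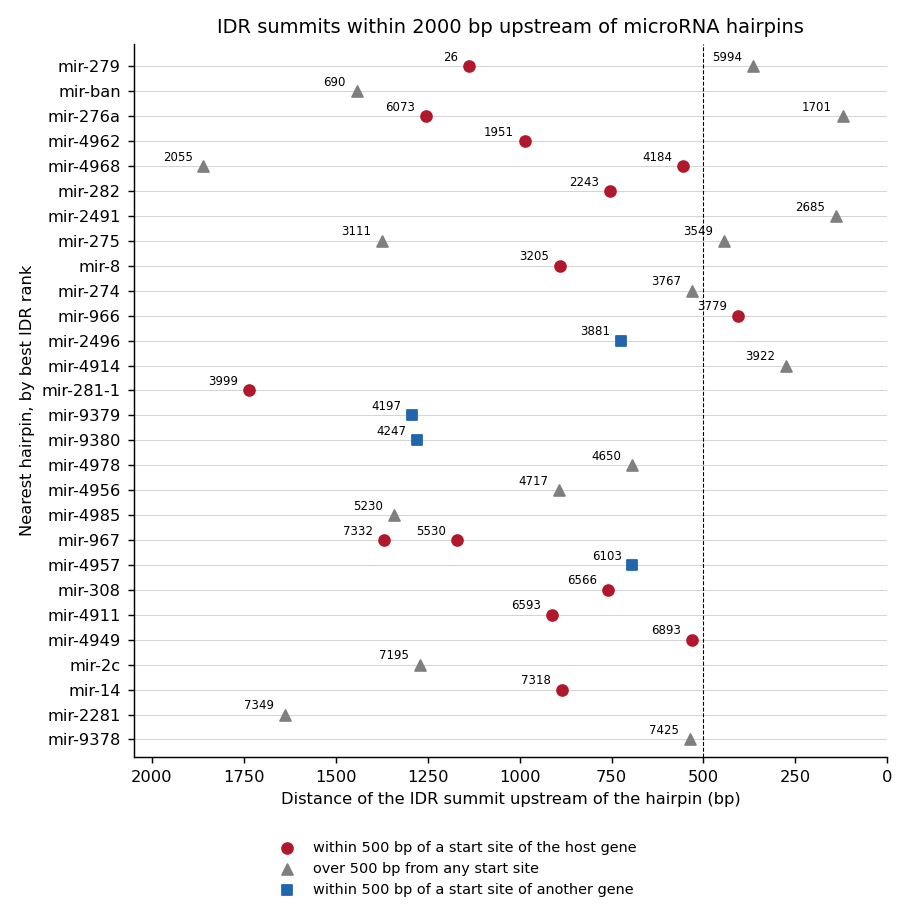
Distance (bp) of each of the 33 IDR summits upstream of its nearest hairpin, 1 row per hairpin in order of best rank, with the IDR rank beside each point; red circles lie at a start site of the host and blue squares at one of another gene (500 bp or less), and grey triangles over 500 bp from any. The dashed line marks 500 bp. mir-279 has the strongest summit at rank 26, and mir-276a has the nearest upstream one at 121 bp.

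Protein-coding hosts supplied the other bound hairpins within 500 bp. mir-2491, in an intron of fog on X, had a summit at 140 bp with rank 2685. The ranks were 2739 in replicate 1 and 2679 in replicate 2. mir-4914, in CG31689 on 2L, had one at 275 bp with rank 3922, and mir-966, in the purine synthesis gene Pfas on 2L, had one at 407 bp with rank 3779, which lay 70 bp upstream of a Pfas start site. Those just outside the window were mir-4949 at 530 bp, mir-274 at 531 bp, mir-9378 at 537 bp and mir-4968 at 555 bp, and the last inside it was mir-275 at 445 bp. At the 2000 bp limit the last inside were mir-281-2 at 1953 bp and mir-996 at 1965 bp, and the first outside were mir-276a at 2091 bp and mir-282 at 2112 bp, each with a further summit. The 4 hairpins just outside 500 bp compare with 6 inside it, so a small shift of the limit moves that count.

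Among the other strong summits within 2000 bp, mir-4962 had one of rank 1951 at 986 bp, 337 bp downstream of a start of its host Tlk, a protein kinase gene. mir-4968 had one of rank 2055 at 1860 bp and one of rank 4184 at 555 bp, the second 136 bp upstream of a start of its host Mob2. mir-274, which is known from glia, had one of rank 3767 at 531 bp, which had no match within 100 bp in replicate 1 and rank 3813 in replicate 2. The mir-281-1 cluster had one of rank 3999 at 1735 bp, 491 bp upstream of a start of asRNA:CR46194. mir-967 had summits of rank 5530 and 7332, 14 and 214 bp upstream of a start of bun, and the weaker one had no match in replicate 2.

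A start site of another gene was the nearest feature at several of these summits. The summit of mir-2496 (rank 3881) lay 211 bp from a start of PIG-K, that of mir-9379 (rank 4197) 138 bp from Echs1 and that of mir-9380 (rank 4247) 241 bp from Atg13. At mir-9379 the matching summit of replicate 2 had rank 13325 and a −log10 q of 1.20. Other summits lay far from every start site. Examples are those of mir-2281 (rank 7349), 7310 bp from one of cv-c, mir-4956 (rank 4717), 6138 bp from one of Sxl, in whose span the hairpin lies, mir-9378 (rank 7425), 3850 bp from one of CG17124, and mir-4978 (rank 4650), 2500 bp from one of mam. That of mir-4985 (rank 5230) lay 1208 bp from one of Fatp3.

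Taken over the 33 summits, the median rank was 4197, from 26 to 7425, and 3 were among the 1911 strongest peaks of the IDR list. Those 3 belong to mir-279, mir-ban and mir-276a, and all 3 loci have non-coding hosts. Both replicates had a summit within 100 bp of 31 of the 33. Since the IDR list was made from the replicate lists, that count describes the list and is no separate test. Of the 33 summits, 18 lay within 500 bp of a start site, 14 of those at a start of the hairpin's own host, and 15 lay over 500 bp from any start site. The same shares over the whole IDR list are not given here, so these counts describe the 33 summits alone.

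**Figure D4:**
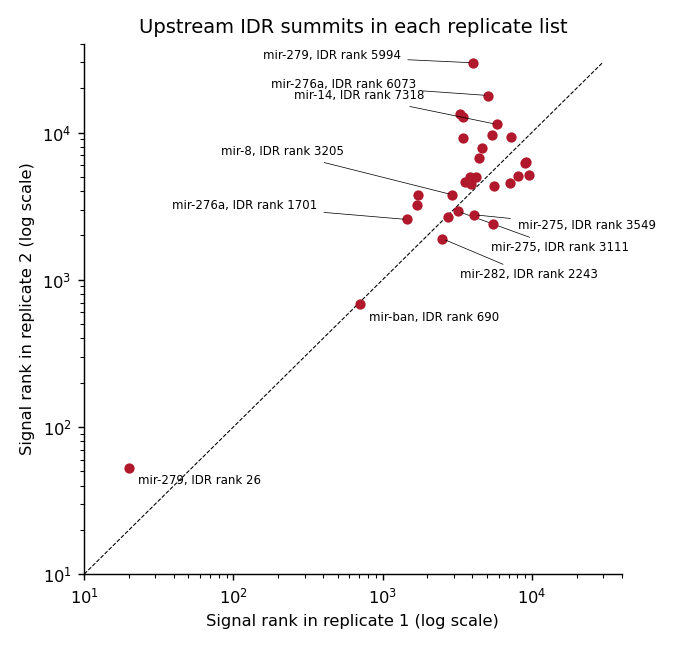
Signal rank in replicate 2 against rank in replicate 1 (both log scales, 1 the strongest) for the 31 upstream IDR summits with a match within 100 bp in both replicates; the dashed line is equal rank. mir-279 (20 and 53) and mir-ban (710 and 680) lie closest to the strong end, and the weaker summits of mir-279 and mir-276a have far lower places in replicate 2 (29809 and 17863).

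Among the 4 larger classes of location, counted by hairpin, the bound share was highest in non-coding hosts and lowest between genes. Of 46 hairpins with a non-coding host, 11 had an IDR summit within 2000 bp, or 23.9% (13.9 to 37.9%), against 13 of 131 with a protein-coding host, or 9.92% (5.89 to 16.2%). The 2 intervals overlap. Of 51 intergenic hairpins 2 were bound, or 3.92% (1.08 to 13.2%), and of 27 hairpins antisense to a gene 5 were, or 18.5% (8.18 to 36.7%). The bound intergenic hairpin mir-305 shares its summits with mir-275, which has a non-coding host. Counted by unit, 8 of 32 units with a non-coding host and 13 of 121 with a protein-coding host were bound. Of the antisense units 5 of 19 were, and of the intergenic ones 2 of 33. A unit with hairpins in more than 1 class counts in each of them. The mir-275 cluster, which holds mir-305, thus stands among the bound units of both the non-coding and the intergenic class. By unit, non-coding hosts thus stood no higher than the antisense class. The remaining 5 hairpins have both kinds of host, and 2 of them, mir-281-1 and mir-281-2, were bound by the same summit. A start site on the same strand, of a host or of another gene, lay within 2000 bp upstream of 85 hairpins, and in 77 of these it was that of a host. Of the 85, 19 were bound, or 22.4% (14.8 to 32.3%), 17 of them among the 77, against 14 of the 175 without one, or 8% (4.83 to 13.0%). Of 34 hairpins that fill an intron of their host from end to end, as mirtrons do, 2 were bound, mir-4914 and mir-4911. This stands beside 33 of all 260 hairpins, or 12.7%. The summit of mir-4911 lay 149 bp upstream of the start of its host ND-23 and 912 bp from the hairpin.

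Host genes had a bound start site more often than other genes of their kind. These shares take 500 bp on both sides of every start site of a gene. They are therefore not comparable to the shares for the single stretch upstream of a hairpin. Some hosts also share their best summit, as chk and CG45092 do, and CG7029 and Usp12-46. Of 128 protein-coding hosts, 37 had a start site with an IDR summit no more than 500 bp away, or 28.9% (21.8 to 37.3%), against 19.4% of the 13817 other protein-coding genes and 19.5% of all of them. Of 37 non-coding hosts 10 were bound, or 27.0% (15.4 to 43.0%), against 10.7% of the 2483 other non-coding RNA genes and 10.9% of all of them. Hosts are long, with a median of 14094.5 bp for protein-coding hosts, against 2147 bp for the other genes of that kind, and 6436 bp for non-coding hosts, against 701 bp. The median number of start sites was 2 in protein-coding hosts and 1 in the other protein-coding genes, and 1 in both sets of non-coding genes. Counted per start site, 21.6% of those of protein-coding hosts carried a summit, against 17.8% of those of other protein-coding genes. For non-coding hosts the shares were 21.3% of 61 start sites, against 10.5% of 2622. Among genes with 2 or more start sites, 43.1% of protein-coding hosts were bound, against 33.0% of the others, and 35.7% of 14 non-coding hosts, against 19.1% of 115 others. Even there the protein-coding hosts had more start sites, with a median of 3 against 2. Counted per start site of these genes, the shares were 24.2% against 21.4% for protein-coding genes and 21.1% against 13.0% for non-coding genes. In the list called on both replicates, 83 protein-coding hosts (64.8%) and 18 non-coding hosts (48.6%) were bound, against 45.3% of all protein-coding and 31.6% of all other non-coding RNA genes. The part of gene length in these differences was not tested.

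**Figure D5:**
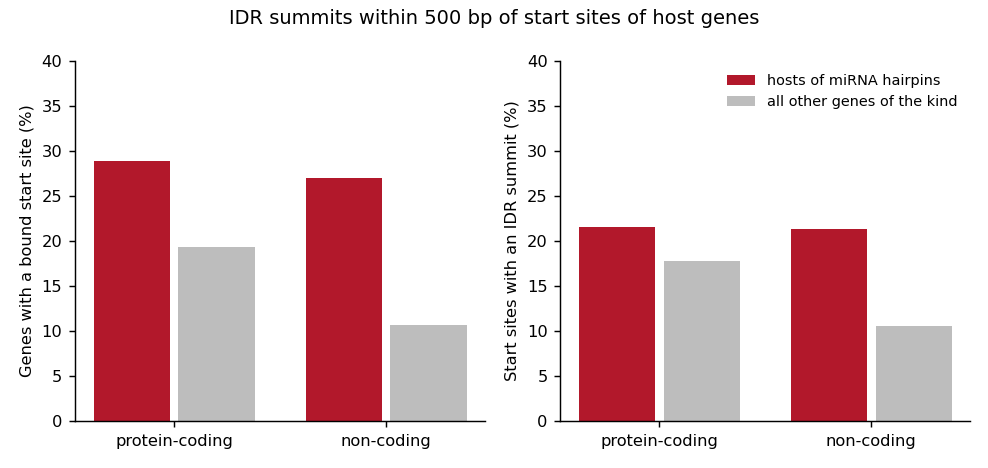
Share (%) of genes with a start site at most 500 bp from an IDR summit (left) and of start sites with one (right), for hosts of microRNA hairpins (red) and all other genes of the same kind (grey). Per gene the hosts stand at 28.9% for protein-coding and 27.0% for non-coding, against 19.4% and 10.7%; per start site they stand at 21.6% and 21.3%, against 17.8% and 10.5%.

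After lncRNA:CR31044 at rank 26, the strongest bound hosts were protein-coding, apart from lncRNA:CR43626 at rank 336. The foraging gene for, a cGMP-dependent protein kinase, holds mir-4972 and had a summit of rank 47, with 47 in replicate 1 and 59 in replicate 2. The start site beside that summit lies 4919 bp downstream of the hairpin, and another bound start of for lies upstream of it. Btk, a tyrosine kinase gene, holds mir-2b-1 and had rank 87, with 63 in replicate 1 and 207 in replicate 2. CG5953, host of mir-4943, had rank 178, with 186 in replicate 1 and 177 in replicate 2. spi, which encodes a ligand of the epidermal growth factor receptor, holds mir-2b-2, mir-2a-1 and mir-2a-2 and had rank 340, with 526 in replicate 1 and 153 in replicate 2.

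Next came bun at rank 386 (mir-967), the transporter gene MRP at 394 (mir-9382), the phospholipase gene PAPLA1 at 447 (mir-4984) and CG12241 at 602 (mir-9383). The heat-inducible lncRNA:Hsromega, host of mir-4951, had rank 641, with 648 in replicate 1 and 657 in replicate 2. The 4 protein-coding hosts bun, MRP, PAPLA1 and CG12241 had ranks of 422, 769, 552 and 741 in replicate 1 and 338, 117, 322 and 438 in replicate 2. A bound start site lay upstream of a hairpin on its strand in 35 of the 37 protein-coding hosts and in all 10 non-coding ones. From the best host summit to the nearest hairpin the median distance was 7606 bp for protein-coding hosts, with a range of 407 to 62717 bp, and 2238.5 bp for non-coding hosts.

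Counting a unit as bound when a summit lay within 2000 bp upstream or at a start of a host gave 56 of 203 units, or 27.6%. By this count 9 of the 22 clusters were bound and 47 of the 181 lone hairpins. Of the 11 clusters of 3 or more hairpins 3 were bound, namely mir-2c, the mir-2b-2 cluster in spi, and the mir-9c cluster in grp, the fly gene of checkpoint kinase 1. The summit at grp had rank 1456, with 1675 in replicate 1 and 1260 in replicate 2, and lay 12931 bp from mir-9c.

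None of the 5 clusters of 5 or more hairpins, which hold 38 hairpins in all, had an IDR summit within 2000 bp upstream. The share over all 203 units was 13.8%, and 5 clusters are too few to be set apart from it. Only the mir-309 cluster has a host, whose start was unbound, so the count of host starts could not add the other clusters. The mir-309 cluster of 8 hairpins, known for clearing maternal messenger RNA in the embryo, had its nearest IDR summit 12976 bp downstream of mir-6-3, all distances being from the 5′ end of the closest hairpin. For the mir-972 cluster of 12 hairpins the nearest IDR summit was 4095 bp downstream of mir-979. For the mir-959 cluster of 6 it was 17006 bp upstream, for the mir-984 cluster of 5 it was 22855 bp upstream, and for the mir-992 cluster of 7, which includes mir-310 to mir-313, it was 1230 bp downstream of mir-310. Each cluster is 1 observation, since its hairpins share their surroundings.

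The let-7 complex had no IDR summit within 2000 bp of a hairpin or near the start of lncRNA:let7C. The nearest lay 3229 bp upstream of mir-100. The list called on both replicates had a summit at 762 bp, of rank 16167, with a match of rank 18722 in replicate 1. The nearest summit upstream of mir-100 in replicate 2 lay at 1898 bp, with rank 11272. The start of lncRNA:let7C carried no summit in the list called on both replicates either. The mir-317 cluster, which holds mir-277, a regulator of amino acid breakdown, and mir-34, known from ageing, had its nearest IDR summit at 3365 bp upstream of mir-317. The mir-283 cluster in Gmap, with mir-304 and mir-12, had its nearest IDR summit 19797 bp downstream of mir-12.

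Other well studied microRNAs were also without an IDR summit within 2000 bp upstream. mir-1, the muscle microRNA, had a summit of rank 11869 at 456 bp in the list called on both replicates, with rank 9310 in replicate 1. The nearest summit of replicate 2 upstream of mir-1 lay at 275 bp, with rank 21391 and a −log10 q of 0.393. mir-9a, which steadies sensory organ formation, had one of rank 21886 at 323 bp, and the nearest summits of the replicates had rank 24959 in replicate 1 and 16043 in replicate 2. mir-7, mir-33, mir-124, mir-133, mir-184, mir-252, mir-278, mir-315, mir-iab-4 and mir-iab-8 had no summit of that list within 2000 bp upstream. mir-184, mir-252 and mir-iab-8 had a summit there in replicate 2 alone. mir-965 had no IDR summit within 2000 bp, but the start of its host kis, a chromatin remodeller gene, had one of rank 7543 at 7606 bp from the hairpin.

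Sequence around the upstream summits was less rich in A and T than at the rest of the list. The mean A and T content within 50 bp of the summit was 64.7% ± 9.50 at microRNA summits (SD, n = 33), against 68.9% ± 8.13 at the other IDR summits (SD, n = 7612), a difference smaller than either spread. Motifs were searched on both strands of the same windows. The TATA box TATAAA was in 9 of 33 windows, or 27.3% (15.1 to 44.2%), against 25.2% of the other windows. The E-box CACGTG was in 1, at mir-8, or 3.03% (0.537 to 15.3%), against 0.512% of the others. The GATA motif TGATAA was in none of the 33, for which the upper Wilson limit is 10.4%, against 9.81% of the others. The GAGA motif GAGAGAG and the DRE were also in none, against 1.14% and 0.552% of the others. None of the 5 motifs contains another. The interval for TATAAA held the share of the other windows, and the E-box share rests on 1 window.

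The genes that make and use small RNAs were taken as a list of 30 names, which stand for 27 distinct genes, after 1 name with no match and 2 names for genes already listed. Of these genes, 8 had an IDR summit at most 500 bp from a start site, or 29.6% (15.9 to 48.5%), against 19.5% of all protein-coding genes. In the list called on both replicates 19 were bound, or 70.4%, against 45.3% of protein-coding genes. Neither drosha, pasha, Dcr-1, loqs nor AGO1, the core of the microRNA pathway, had an IDR summit, and Dcr-2 and AGO2 of the small interfering RNA pathway had none. pasha, loqs and AGO1 had summits in the list called on both replicates, of rank 17309, 11242 and 9845, and drosha and Dcr-1 had none there.

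Of the 8 bound genes, gw, whose product GW182 silences targets with AGO1, had rank 1566 and lay on chromosome 4, with its summit 114 bp upstream of a start. It had rank 1630 in replicate 1 and no match in replicate 2. r2d2, the partner of Dcr-2, had rank 1751, with 1939 in replicate 1 and 1447 in replicate 2, but its summit was nearer to the start of Herp. The loading chaperone gene Hsp83 had rank 2698, with rank 1993 in replicate 1 and no match in replicate 2. The others were Nbr (rank 5854, nearest start Noc2), which trims microRNA ends, the decapping gene DCP2 (6001), the deadenylase gene twin (6642), the chaperone gene Droj2 (6678, nearest start mRpS21) and Ars2 (7251, no match in replicate 2), which delivers capped transcripts for processing. Among the 7645 strongest peaks of replicate 1 alone the count was 4, and among those of replicate 2 alone it was 9.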

How the data were processed

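The rule that gave the 262 hairpins uses annotation alone. That rule, the gene lists and the comparisons were nevertheless chosen with earlier results of these data known. Per the deposited file descriptions, the authors called peaks for each replicate against a control alignment, on both replicates together, and derived the IDR list from these. The aligner, the peak caller and the read depth were not given in the sources used here. The control reads were not used here. The signal of each peak is as the authors deposited it, on a scale that is not stated, and served only to order the peaks of each list. All IDR peaks hold the same deposited −log10 q-value, the maximum, which therefore orders none of them. The deposited summit offset in bp gave each peak its position, as the interval start plus the offset. The number of per-sample columns left unassigned was 0.

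Genes came from Ensembl release 115, without transposable elements and without the entries of mature microRNA products. Sequence came from RefSeq Release 6. Upstream was read from the 5′ end of a hairpin on its own strand. A host is a gene of another kind on the same strand whose span holds the hairpin. No test was run: shares have Wilson 95% intervals, computed in Python 3.11.15 with SciPy 1.17.1. Counting in windows was tested on simulated data.

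The microRNAs named are the units with an IDR summit within 500 bp, the 20 of highest signal within 2000 bp, all clusters of 3 or more hairpins, and a list of well studied ones. The hosts are those of these units and the 10 of highest signal. The biogenesis genes are the bound ones and the core. mir-308, mir-4911, mir-4949, mir-9378, mir-4974 and mir-281-2, the seed families, loqs, Dcr-2 and AGO2, the host lncRNA:Hsromega, and the hairpins drawn in the plot of summit distances beyond the rule, were named after their values were seen.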

Additional observations from a re-analysis of the deposited data

How the results depend on the processing

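No paired analysis was possible because the study has 1 group and no comparison of groups. With the list called on both replicates in place of the IDR list, the counts were 33 (500 bp) and 83 (2000 bp) bound hairpins, 69 units, 101 hosts and 19 biogenesis genes. With the 1911 strongest IDR peaks they were 1, 3, 3, 18 and 2. Within 500 bp, overlap of the peak interval gave 12 hairpins, a 250 bp window 2 and a 1000 bp window 21. Leaving out summits at most 500 bp from the start of a gene that is no microRNA gene (hosts count here) left 18 of the 33 hairpins bound within 2000 bp. A limit of 250 bp from a start site gave 30 hosts. When the IDR list was replaced by the 7645 strongest peaks of a single replicate, the counts were 6 to 6 hairpins within 500 bp, 28 to 31 within 2000 bp, 25 to 27 units, 44 to 47 hosts and 4 to 9 biogenesis genes. Of these, only the biogenesis count of 4, from replicate 1 alone, was over 1.5 times away from the count reported. TATAAA within 25 bp of the summit, an alternative chosen after seeing the data like the one within 100 bp and the count of units over any of their hairpins, was in 3 windows. In all, 29 of 46 alternatives moved a count by no more than 1.5 times or the A and T content by less than 1 SD. The cause of the changes was not tested, beyond the shorter or longer lists and windows themselves. With 2 replicates, 1 group and unknown depth, a hairpin without a summit is not shown to be unbound.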
